A study of Homo sapiens with 16 samples.

Results

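Integrin subunits of epithelial cells were followed across 4 conditions of 16HBE, a human bronchial epithelial line immortalised with SV40 large T antigen. The 10 genes were ITGA2, ITGA3, ITGA5, ITGA6, ITGAV, ITGB1, ITGB3, ITGB4, ITGB6 and ITGB8, of 42665 gene names carried by the array. Every non-control probe whose gene name was a listed symbol was taken, which gave 12 probes for the 10 genes. The study asked which genes respond to hepatocyte growth factor (HGF), the ligand of the receptor MET, when MET is wild type or lacks exon 14. 16HBE-WT cells carried the wild-type receptor, and 16HBE-ex14 cells were clone F, made with CRISPR/Cas9 so that exon 14 of MET is skipped. Each genotype was left without HGF or given 20 ng/mL for 24 h, and all cells had first spent 2 h without serum. The wild-type groups are called 16HBE-WT and 16HBE-WT+HGF and the edited groups 16HBE-ex14 and 16HBE-ex14+HGF, with 4 arrays in each. 16HBE-ex14 is 1 clone, so the exon 14 edit and other features of that clone cannot be told apart. The study's methods describe repeats separated by time in culture, but the labels tie no array to a repeat, and the p-values measure the spread between these arrays.

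Integrins are receptors made of 1 alpha and 1 beta subunit that bind the extracellular matrix outside the cell and the actin or keratin skeleton inside it. A subunit reaches the surface only with a partner, and several alphas compete for the same beta. In airway epithelium, ITGA2 with ITGB1 is a collagen receptor, ITGA3 with ITGB1 and ITGA6 with ITGB4 bind laminins of the basement membrane, and ITGA5 with ITGB1 binds fibronectin. ITGAV joins ITGB1, ITGB3, ITGB6 or ITGB8 to bind ligands with an arginine-glycine-aspartate motif, among them vitronectin, fibronectin and the latent form of TGF-beta.

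Promoter sequence is shown for ITGA2 and ITGB8, the members called with opposite signs when the genotypes were compared under HGF and for which a window was at hand. RefSeq's windows for GRCh38.p14 matched 7 of the 10 members with 10 start sites; ITGA3, ITGB3 and ITGB4 had no entry. The 250 bases before each start are printed 5′ to 3′ on the gene's strand, at chr5:52989102-52989351 (+) for ITGA2 and at chr7:20330650-20330899 (+) for ITGB8. Capitals mark the GC box GGGCGG on either strand.
ITGA2: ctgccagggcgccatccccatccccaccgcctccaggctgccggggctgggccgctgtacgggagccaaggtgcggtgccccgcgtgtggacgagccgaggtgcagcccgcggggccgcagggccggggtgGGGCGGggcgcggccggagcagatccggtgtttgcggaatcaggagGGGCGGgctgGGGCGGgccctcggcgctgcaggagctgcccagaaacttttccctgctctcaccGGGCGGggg
ITGB8: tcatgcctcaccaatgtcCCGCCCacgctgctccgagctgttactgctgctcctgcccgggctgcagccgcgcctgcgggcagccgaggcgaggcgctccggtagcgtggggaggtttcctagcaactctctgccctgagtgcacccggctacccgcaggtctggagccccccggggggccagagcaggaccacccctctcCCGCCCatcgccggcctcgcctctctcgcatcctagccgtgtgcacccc
The ITGA2 window held 4 GC boxes on the forward strand and none on the reverse, and the ITGB8 window held 2, both on the reverse strand. A GC box on either strand was found in 42.6% of the 35116 windows of 250 bases in the table, and in 5 of the 10 windows of the members. The AP-1 site TGANTCA was in none of the 10 windows and in 6.57% of all windows. The ETS site CNGGAAG was in 4 of the 10 and in 28.3% of all, and in neither sequence shown. The GC content ranged from 30% before ITGB6 to 78.4% before an ITGB1 start, and was 76.4% for ITGA2 and 71.2% for ITGB8. These matches describe the letters and nothing was measured at the promoters.

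Each array gave a linear brightness per spot, and levels below are log2 of that signal minus the 75th percentile of the same array, so 0 is the brightness of the 75th percentile. Levels of different probes are not comparable and are only followed across groups. The 75th percentile lay between 139.5 and 262.8 and was higher on the arrays of 16HBE-ex14 than on most of those of 16HBE-WT, and 49% to 60.3% of probes were well above background. All 10 epithelial markers, EPCAM, CDH1 and keratins among them, were well above background on all 16 arrays. Of 8 fibroblast markers, 5 were above background on none (COL1A2, COL3A1, DCN, PDGFRA and THY1), and COL1A1 and PDGFRB on all. The summed linear level was 0.577 to 1.1 times the 75th percentile in 16HBE-WT and 0.355 to 0.528 in 16HBE-ex14 without HGF. LUM was at least 3.06-fold lower there and at least 2.23-fold lower under HGF. But LUM was well above background on all 4 arrays of each wild-type group and on 0 of either edited group. It was thus tested only through the genotype where it was high, and gives no support for a difference. Of 6 endothelial markers CDH5 and VWF were above background on all arrays and PECAM1, TEK and KDR on none, with a summed list level between 0.295 and 0.635 in all groups. Of the 5 leukocyte markers on the array, PTPRC, CD3E, CD14 and ITGB2 were above background on all arrays, with summed levels of 3.04 to 3.33 in 16HBE-ex14 and 3.48 to 4.7 in the other groups, and CD3E was called lower in 16HBE-ex14 without HGF (-0.98 ± 0.28, SE, adjusted p = 0.0242 by limma). The part of these signals in the genotype differences below was not tested. In RNA from a whole culture, fewer cells of a kind and less RNA per cell cannot be told apart. The MET probe, at chr7:116438290-116438349 (hg19) and transcript position 6486, is outside exon 14, and so it checks neither genotype. Its level was 4.97 ± 0.17 (SD, n = 4) in 16HBE-WT and 5.1 ± 0.15 (SD, n = 4) in 16HBE-ex14.

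All 10 members had a tested probe, that is, one with a signal well above background on 4 or more of the 16 arrays. A second ITGB1 probe was above background on only 1 array and was not tested. ITGB3 was the exception among the tested probes: it was above background on 0 of 4 arrays in 3 groups and on 4 of 4 in 16HBE-ex14+HGF, and so it entered the test only through the group where it was high. Each member is represented by its brightest tested probe. A call needed an adjusted p under 0.05 (limma with Benjamini-Hochberg adjustment over 34600 probes) and more than a 1.5-fold change.

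**Figure D1:**
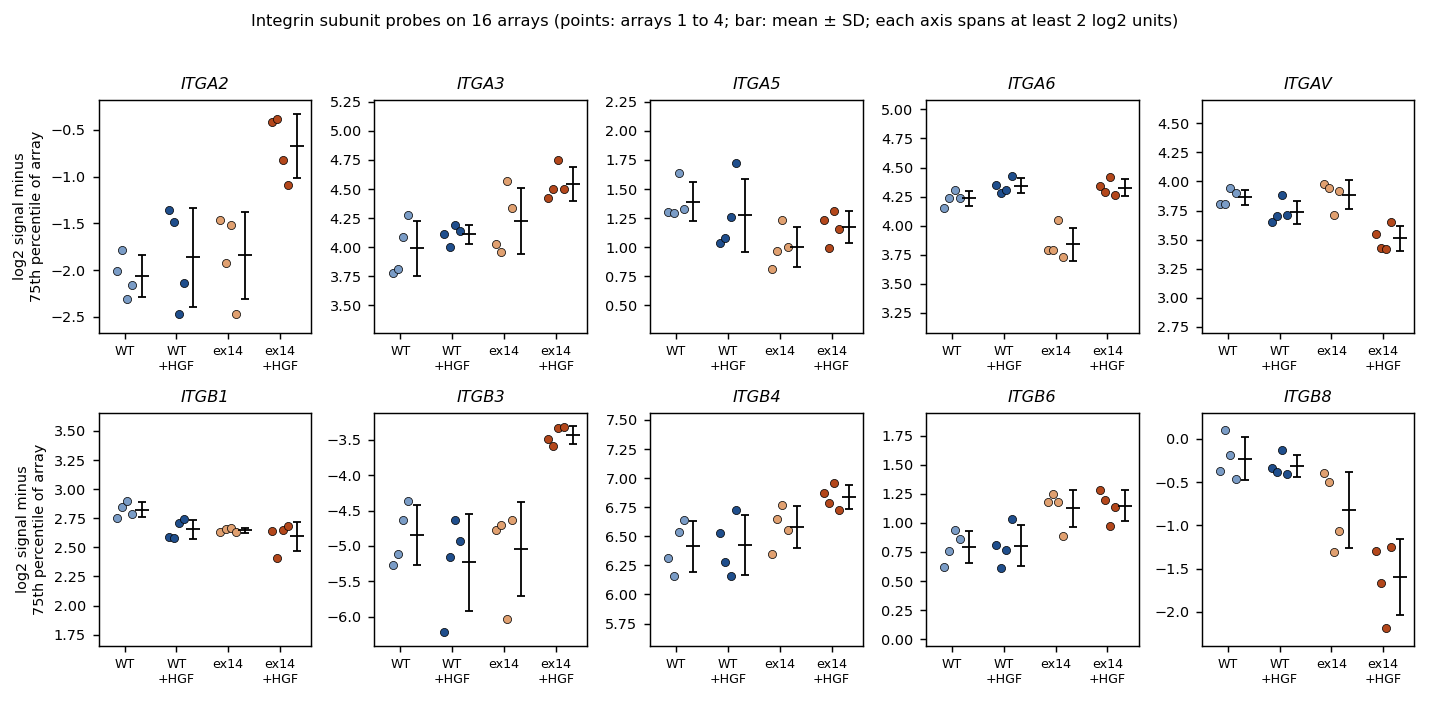
Levels of the 10 integrin subunits on the 16 arrays, as log2 signal minus the 75th percentile of the array (vertical axis) in 4 groups (horizontal axis). Points are arrays 1 to 4 and bars the mean ± SD of 4 arrays. The 4 arrays of 16HBE-ex14+HGF stand above all others for ITGA2 and ITGB3 and below those of 16HBE-WT and 16HBE-WT+HGF for ITGB8. Each panel has its own axis, since probes cannot be compared with each other.

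With HGF, ITGA2 rose in 16HBE-ex14 cells, and ITGB3 was also called there, while no member was called in 16HBE-WT cells. In 16HBE-ex14, 2% of all tested probes were called, and 1 member was called where only probes above background on all 16 arrays were tested, which leaves out ITGB3. In 16HBE-WT, 0 of 10 were called and 0% of all probes, none of the 10 had an unadjusted p under 0.05, and 1694 of the 34600 probes did. Without HGF no member was called between the genotypes, where 9.4% of probes were. With HGF, ITGA2 and ITGB3 were higher and ITGB8 lower in 16HBE-ex14, beside 10.8% of probes, and 2 members were called with only probes above background on all arrays. The comparisons of HGF in 16HBE-ex14 and of the genotypes under HGF share the 4 arrays of 16HBE-ex14+HGF.

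ITGA2, the alpha subunit of the collagen receptor, was measured by a probe at chr5:52389637-52389696 (hg19). Its level was -2.01, -1.78, -2.31 and -2.16 on the 4 arrays of 16HBE-WT and -1.36, -1.48, -2.47 and -2.14 in 16HBE-WT+HGF. In 16HBE-ex14 it was -1.46, -1.92, -1.52 and -2.47, and with HGF -0.41, -0.38, -0.82 and -1.09. The 4 arrays of 16HBE-ex14+HGF were above all 12 others, which overlapped among themselves. With HGF in 16HBE-ex14, ITGA2 rose by 1.17 ± 0.27 on the log2 scale (SE, 2.25-fold, adjusted p = 0.031 by limma), 1.3 on the arrays of slide 1 and 1.04 on those of slide 2. In 16HBE-WT the change was 0.2 with a 95% interval of -0.38 to 0.78. With HGF, ITGA2 was 1.19 ± 0.27 higher in 16HBE-ex14 than in 16HBE-WT (SE, 2.28-fold, adjusted p = 0.00598 by limma), and without HGF the difference was 0.22 (-0.36 to 0.8). The HGF call was lost when 1 array was left out in 5 of 16 cases. The change was then 1.14 (adjusted p = 0.0973, limma) without 16HBE-ex14 replicate 2, 0.96 (0.108) without replicate 4, and 1.08 (0.0769), 1.07 (0.094) and 1.22 (0.0726) without replicates 1, 2 and 3 of 16HBE-ex14+HGF. The HGF call was also lost with scaling to the array median or to spike-ins, with no filter on dim probes and in a fit of only the 8 arrays compared. The adjusted p was then 0.0705, 0.0622, 0.0632 and 0.0837 (limma), and the change 1.01, 1.09, 1.17 and 1.17. Over all 13 settings other than leaving out an array, the change ranged from 0.69 to 1.17, and 9 of them called it. The genotype call under HGF held in all 16 cases, but with normexp background correction that difference was 0.55, under the fold limit.

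The laminin-binding alpha subunits ITGA3 and ITGA6 stayed under the 1.5-fold limit in every comparison. ITGA6, measured at chr2:173370556-173370615 (hg19), was at 4.15, 4.24, 4.31 and 4.24 in 16HBE-WT and at 4.35, 4.28, 4.31 and 4.43 in 16HBE-WT+HGF. It was at 3.79, 3.79, 4.05 and 3.73 in 16HBE-ex14 and at 4.34, 4.29, 4.42 and 4.26 in 16HBE-ex14+HGF. The 4 arrays of 16HBE-ex14 without HGF were below the 12 others. The difference from 16HBE-WT was -0.4 ± 0.08 (SE, 1.32-fold, adjusted p = 0.00424 by limma), and the change with HGF in 16HBE-ex14 was 0.49 ± 0.08 (SE, 1.4-fold, adjusted p = 0.00632). Both passed the adjusted p and stayed under the 1.5-fold limit, so neither was called. With HGF the genotypes differed by -0.02, with an interval of -0.2 to 0.16. The second ITGA6 probe, at chr2:173369203-173369262, gave 0.57 with HGF in 16HBE-ex14 (1.49-fold, adjusted p = 0.0179 by limma, no overlap). Between the genotypes without HGF it gave -0.36, with an adjusted p of 0.0522 by limma and overlapping groups. With scaling to the array median in place of the 75th percentile, the adjusted p of the first probe was 0.196 for HGF and 0.168 for genotype. ITGA3 went from 3.99 ± 0.24 (SD, n = 4) in 16HBE-WT to 4.11 ± 0.08 with HGF, and from 4.22 ± 0.28 in 16HBE-ex14 to 4.54 ± 0.14 with HGF. Its groups without HGF overlapped, and with HGF the 4 arrays of 16HBE-ex14 (4.42 to 4.75) were above those of 16HBE-WT (4 to 4.19), a difference of 0.44 ± 0.14 (SE, adjusted p = 0.0449 by limma) that stayed under the fold limit. With 1 array left out, the adjusted p of that difference was 0.0261 to 0.126 (limma).

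ITGA5, the alpha subunit of the fibronectin receptor, was at 1.39 ± 0.17 (SD, n = 4) in 16HBE-WT and 1.27 ± 0.31 with HGF, and at 1 ± 0.17 in 16HBE-ex14 and 1.17 ± 0.14 with HGF. Without HGF the arrays of 16HBE-ex14 (0.81 to 1.23) lay below those of 16HBE-WT (1.29 to 1.64), but the difference of -0.39 ± 0.15 (SE) had an adjusted p of 0.0847 by limma. That adjusted p was 0.033 to 0.218 with 1 array left out and 0.0265 to 0.382 in the other settings (limma), and none of them called it. ITGAV, the alpha subunit shared by 4 of the beta subunits here, was at 3.81, 3.81, 3.94 and 3.9 in 16HBE-WT and at 3.65, 3.7, 3.88 and 3.71 with HGF. In 16HBE-ex14 it was at 3.98, 3.94, 3.71 and 3.92, and with HGF at 3.55, 3.43, 3.42 and 3.65. The last group was below the untreated arrays of its genotype without overlap, by -0.37 ± 0.09 (SE, 1.3-fold, adjusted p = 0.0347 by limma), under the fold limit. The same change was -0.13 in 16HBE-WT (-0.32 to 0.06). In 16HBE-ex14 the ITGAV change was -0.43 to -0.34 with 1 array left out, with an adjusted p of 0.0148 to 0.123 (limma). In the other settings it was -0.53 to -0.37, with an adjusted p of 0.0119 to 0.165 (limma). The value of 0.165 came from a fit of only the arrays of the groups compared. The sign of the ITGAV change thus held, but whether its adjusted p was under 0.05 depended on the fit. The ITGAV and ITGB1 probes were each printed in 10 spots per array, whose SD within an array was 0.05 (median) for either gene.

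Of the beta subunits of laminin and collagen receptors, ITGB1 and ITGB4 were not called in any comparison. ITGB1, the common partner of most alpha subunits, was at 2.82 ± 0.07 (SD, n = 4) in 16HBE-WT and 2.65 ± 0.08 with HGF, and at 2.65 ± 0.02 in 16HBE-ex14 and 2.6 ± 0.12 with HGF. With HGF in 16HBE-WT its arrays did not overlap (2.58 to 2.74 against 2.75 to 2.9), the only member of which this was true in that comparison, against 2.61% of probes, and the change of -0.17 had a 95% interval of -0.34 to 0. ITGB4, the hemidesmosome subunit that pairs with ITGA6 alone, was at 6.41 ± 0.21, 6.42 ± 0.25, 6.58 ± 0.18 and 6.83 ± 0.1 (SD, n = 4) in the same order of groups. Under HGF it was 0.41 ± 0.14 higher in 16HBE-ex14 than in 16HBE-WT (SE, adjusted p = 0.0506 by limma), with no overlap.

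ITGB3, the beta subunit that with ITGAV forms a vitronectin receptor, had signals near the limit of the array, at chr17:45389027-45389086 (hg19). Its level was -5.27, -5.11, -4.63 and -4.36 in 16HBE-WT, and -6.21, -5.16, -4.63 and -4.93 in 16HBE-WT+HGF. It was -4.78, -4.7, -6.03 and -4.64 in 16HBE-ex14 and -3.49, -3.59, -3.33 and -3.32 in 16HBE-ex14+HGF. The last group was above the 12 other arrays, with linear signals of 16.8 to 23.37 against 2.548 to 9.168. On the median array the dimmest probe still well above background was at -4.4, so the first 3 groups give only an upper limit. The p-values below come from a probe that was tested only because of its signal in 16HBE-ex14+HGF. Set against the lowest level well above background on each array, ITGB3 was at least 2.18-fold higher with than without HGF in 16HBE-ex14 (adjusted p = 0.0207 by limma), and at least 1.63-fold higher than in 16HBE-WT+HGF (adjusted p = 0.00188). The HGF call was lost without replicate 3 of 16HBE-ex14+HGF (adjusted p = 0.0694), without its replicate 4 (0.0651), and in the 8 arrays alone (0.055). After normexp background correction, which adds 50 to every signal, the change with HGF in 16HBE-ex14 was 0.24 (adjusted p = 0.331) and the genotype difference under HGF was -0.01 (0.914), so neither ITGB3 call holds under that setting.

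ITGB8, which with ITGAV binds latent TGF-beta, was measured at chr7:20455137-20455196 (hg19). Its level was -0.37, 0.1, -0.19 and -0.46 in 16HBE-WT and -0.34, -0.38, -0.13 and -0.41 in 16HBE-WT+HGF. It was -0.4, -0.5, -1.31 and -1.06 in 16HBE-ex14 and -1.29, -1.66, -2.19 and -1.25 in 16HBE-ex14+HGF. The lowest value in wild-type cells was -0.46, and the highest of 16HBE-ex14+HGF was -1.25. Under HGF, ITGB8 was lower in 16HBE-ex14 by -1.29 ± 0.23 (SE, 2.44-fold, adjusted p = 0.00107 by limma), by -1.12 on slide 1 and -1.45 on slide 2, and this call held without any single array. The change with HGF in 16HBE-ex14 was -0.78 ± 0.23 (SE, adjusted p = 0.0911 by limma) and was not called, and the genotype difference without HGF was -0.59 ± 0.23 (SE, adjusted p = 0.0936). The HGF change passed the threshold without 16HBE-ex14 replicate 3 (-0.95, adjusted p = 0.0326), with scaling to the array median (-0.94, 0.0398) and with a trended and robust prior (-0.78, 0.0414). These were 1 of 16 fits with an array left out and 2 of 13 other settings. In the rest it was not called, and it was as small as -0.58 with an array left out and -0.49 in the other settings. The highest adjusted p was 0.274 and 0.257 (limma). ITGB6, the epithelial partner of ITGAV that also binds latent TGF-beta, was at 0.79 ± 0.14, 0.8 ± 0.17, 1.13 ± 0.16 and 1.15 ± 0.13 (SD, n = 4) in the 4 groups. Its probe spans an exon junction of the gene, at chr2:160958330-160964233 (hg19). It did not move with HGF beyond the spread between arrays, with an interval of -0.22 to 0.27 in 16HBE-ex14. Under HGF it was 0.35 ± 0.12 higher in 16HBE-ex14 (SE, adjusted p = 0.0461 by limma), under the fold limit and with overlapping arrays. With 1 array left out, the adjusted p of that difference was 0.024 to 0.135 (limma).

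**Figure D2:**
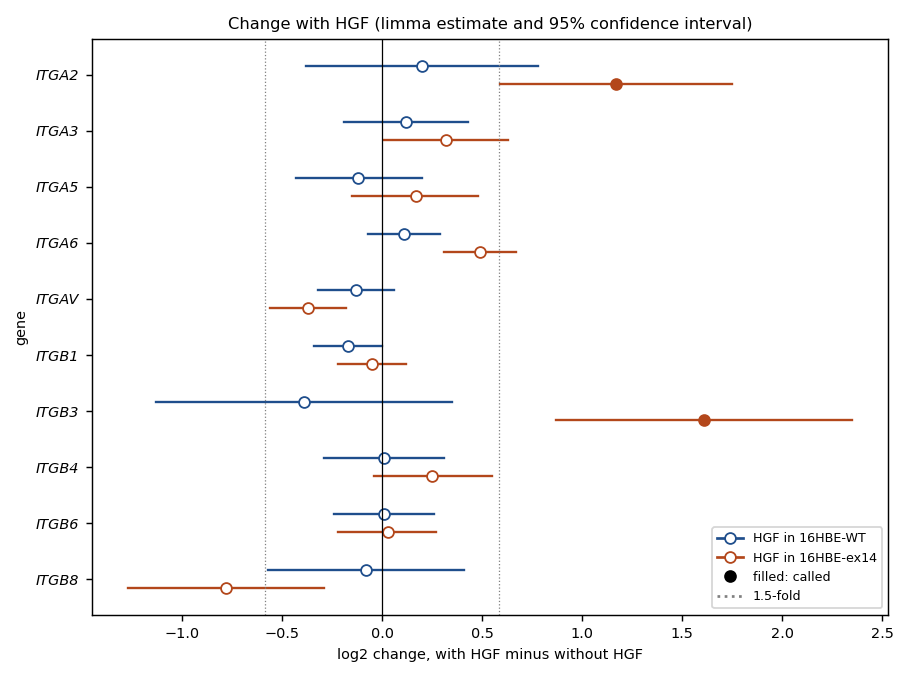
Change of each subunit with HGF (horizontal axis, log2 with HGF minus without) in 16HBE-WT and 16HBE-ex14, as limma's estimate with its 95% interval for 4 against 4 arrays. Filled points are called, and dotted lines mark a 1.5-fold change. ITGA2 (1.17) and ITGB3 are the filled points, and every interval in 16HBE-WT includes 0. The position of ITGB3 rests on signals not above background in 3 groups, and its lower limit is 2.18-fold in 16HBE-ex14.

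Counted without a fold limit, 4 of the 10 members did not overlap between HGF and no HGF in 16HBE-ex14: ITGA2, ITGA6 and ITGB3 were higher and ITGAV lower, against 8.84% of all probes. The 4 include ITGB3, which was tested only because of its signal in 16HBE-ex14+HGF. Its separation was thus favoured in advance and gives no support. The median change over the 10 members, ITGB3 included, was 0.21 in 16HBE-ex14 and -0.04 in 16HBE-WT, where the medians over all probes were 0.05 and 0.04. The difference between the HGF responses of the genotypes, taken as an interaction term, was called for 0 of 10 members and for 0% of probes, the smallest adjusted p over all probes being 0.213 by limma. 1600 probes had an unadjusted p under 0.05, and 4 members were among them. One of these was ITGB3, for which no size is given, since it was not above background in 3 of the 4 groups (adjusted p = 0.459 by limma). For ITGA6 the responses differed by 0.38 (0.12 to 0.64, unadjusted p = 0.00653, adjusted p = 0.782 by limma). For ITGA2 the value was 0.97 (0.15 to 1.79) with an unadjusted p of 0.0242 by limma, and for ITGB8 it was -0.7 (-1.39 to -0.01) with 0.0471, both with an adjusted p of at least 0.98. Hence the HGF responses of the subunits were not shown to differ between the genotypes, although calls were made in one and not in the other.

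**Figure D3:**
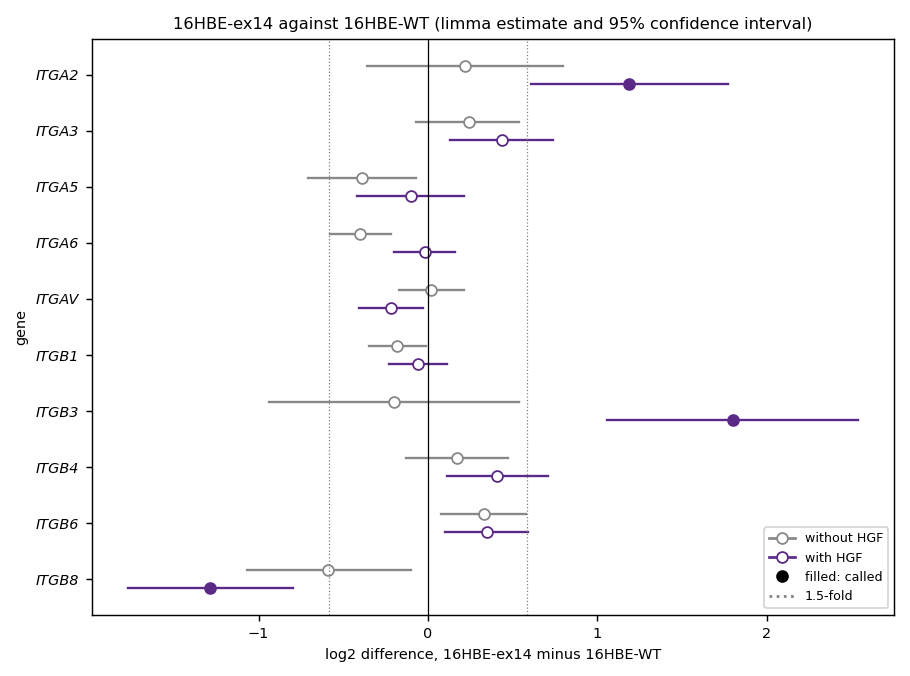
Difference of each subunit between the genotypes (horizontal axis, log2 16HBE-ex14 minus 16HBE-WT) without and with HGF, as limma's estimate with its 95% interval for 4 against 4 arrays. Filled points are called, and dotted lines mark a 1.5-fold difference. ITGA2 (1.19), ITGB3 and ITGB8 (-1.29) are filled with HGF, and no point is filled without HGF. The position of ITGB3 rests on signals not above background in 3 groups, and its lower limit with HGF is 1.63-fold.

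Between the genotypes without HGF, 3 of 10 members did not overlap, ITGA5, ITGA6 and ITGB1, all lower in 16HBE-ex14, against 21.4% of probes. With HGF 6 of 10 did not overlap, against 23.9% of probes. ITGA2, ITGA3, ITGB3 and ITGB4 were higher, and ITGAV and ITGB8 lower. The 6 include ITGB3, whose separation here too was favoured by the filter and gives no support. The median difference over the members, ITGB3 included, was -0.08 without HGF and 0.16 with it, beside -0.02 and 0 over all probes. Of the 10 epithelial markers 3 were called between the genotypes, beside 9.4% of all probes without HGF and 10.8% with it. In either comparison these were the basal keratins KRT5, KRT14 and KRT17. They were lower in 16HBE-ex14, KRT5 by -2.57 ± 0.19 without HGF (SE, adjusted p = 6.29e-07 by limma) and by -4.26 ± 0.19 with it (adjusted p = 3.26e-09). The other 7 differed by -0.58 (KRT19) to 0.38 (CDH1) without HGF and by -0.39 (KRT19) to 0.38 (KRT8) with it, and the basal factor TP63 by -0.07 and 0.01. The same 3 keratins were called lower with HGF in 16HBE-ex14, where 2% of all probes were called. KRT5 fell by 2.32 (adjusted p = 0.000147 by limma), and KRT14 and KRT17 changed by -0.97 (0.0283) and -1.08 (0.0101). The part of this in the values of the subunits was not tested.

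The subunits were then read as 9 alpha-beta pairs, by subtracting the beta from the alpha level within each array and centring on the mean of the 16 arrays. Such a difference does not depend on the scaling between arrays, but its size depends on the probes, so only its movement is given and no test was made. ITGA2 minus ITGB1 was -0.6 ± 0.25 for 16HBE-WT, -0.22 ± 0.61 in 16HBE-WT+HGF and -0.2 ± 0.46 in 16HBE-ex14 (SD, n = 4). It was 1.02 ± 0.43 in 16HBE-ex14+HGF, whose arrays (0.52 to 1.49) were above all others. With normexp the change with HGF in 16HBE-ex14 was 0.74 rather than 1.22, and the genotype difference under HGF 0.53 rather than 1.25. ITGA3 minus ITGB1 was 0.49 higher in 16HBE-ex14 than in 16HBE-WT under HGF, without overlap. ITGA5 minus ITGB1 had overlapping groups in every comparison, with means between -0.17 and 0.09.

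ITGA6 has a choice of ITGB1 or ITGB4. Both pairs moved the same way with HGF in 16HBE-ex14 and between the genotypes without HGF. ITGA6 minus ITGB1 was higher with HGF without overlap in either genotype, by 0.28 in 16HBE-WT and by 0.54 in 16HBE-ex14. In 16HBE-WT this came with a level of ITGA6 of 4.24 and 4.35 and of ITGB1 of 2.82 and 2.65 without and with HGF. Between the genotypes, ITGA6 minus ITGB1 was lower in 16HBE-ex14 without HGF (-0.22, no overlap), and with HGF the groups overlapped (0.04). ITGA6 minus ITGB4 was also higher with HGF in 16HBE-ex14 without overlap (0.23), and in 16HBE-WT its groups overlapped (0.1). It was lower in 16HBE-ex14 than in 16HBE-WT, by -0.57 without HGF and -0.43 with HGF, again without overlap. Its means were 0.2 ± 0.19 in 16HBE-WT and 0.3 ± 0.2 with HGF, against -0.37 ± 0.13 in 16HBE-ex14 and -0.13 ± 0.03 with HGF (SD, n = 4).

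For ITGAV the 4 partners among the members gave different movements. With HGF in 16HBE-ex14, ITGAV minus ITGB1 moved by -0.32 and ITGAV minus ITGB6 by -0.4, each without overlap. ITGAV minus ITGB3 was lowest in 16HBE-ex14+HGF, but ITGB3 was not above background in the other groups, so no size of that movement is given. ITGAV minus ITGB8 moved by 0.41 with overlap. Under HGF it was 1.06 higher in 16HBE-ex14 than in 16HBE-WT, from -0.44 ± 0.06 to 0.62 ± 0.35 (SD, n = 4), and without HGF 0.61 higher, in either case without overlap. In 16HBE-WT none of the 4 ITGAV pairs separated the arrays by HGF. With normexp, the HGF change of ITGAV minus ITGB8 in 16HBE-ex14 was 0.11. ITGB5, a further partner of ITGAV outside the members, was not called in any comparison.

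**Figure D4:**
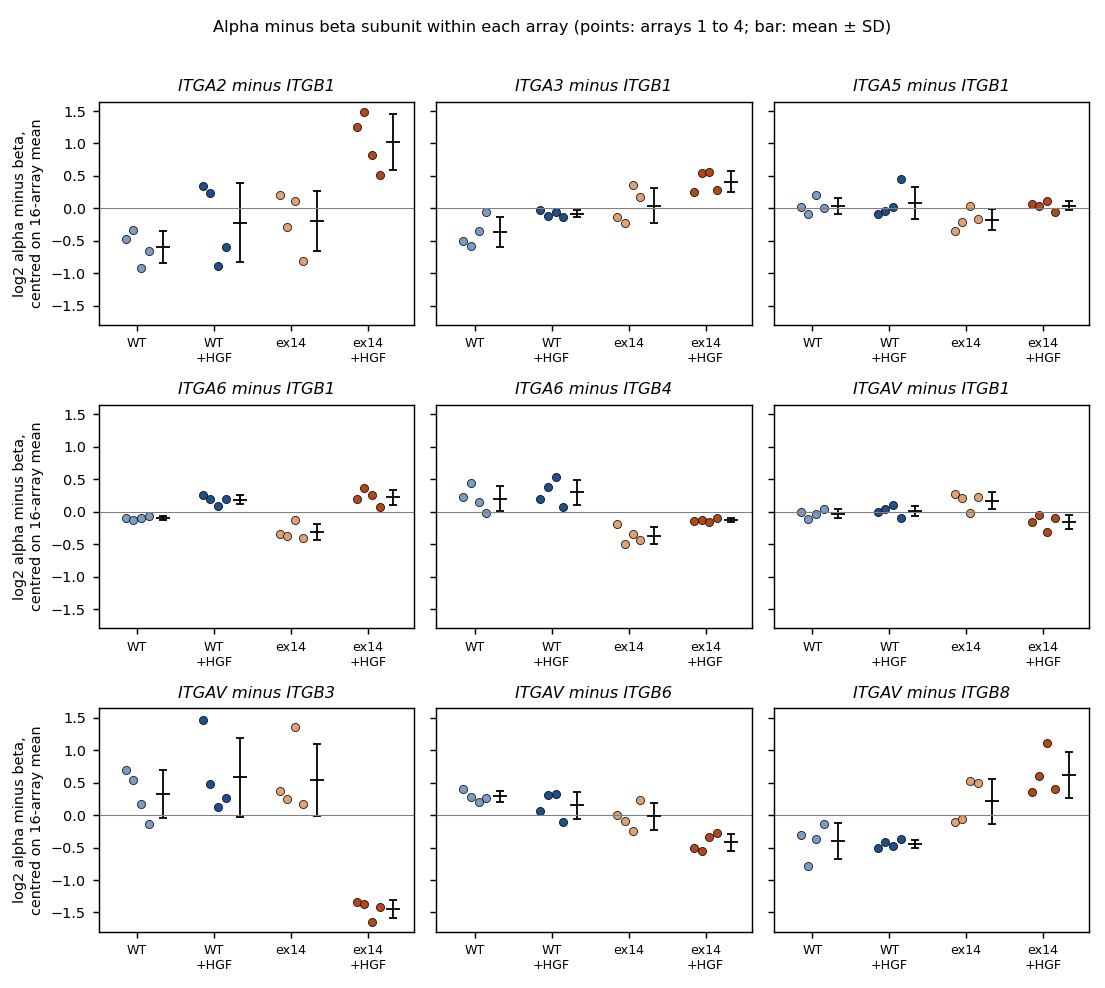
Alpha minus beta level within each array (vertical axis, log2, centred on the mean of the 16 arrays) for 9 pairs in the 4 groups (horizontal axis). Points are arrays 1 to 4 and bars the mean ± SD of 4 arrays. The points of 16HBE-ex14+HGF stand highest for ITGA2 minus ITGB1 (0.52 to 1.49) and lowest for ITGAV minus ITGB3, where ITGB3 was not above background in the other 3 groups.

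Genes that act with integrins were counted from fixed lists. Of 22 integrin ligands 18 were tested. With HGF in 16HBE-ex14, LAMA3, a chain of basement membrane laminin, rose by 0.85 ± 0.17 (SE, adjusted p = 0.0132 by limma). Its level was 5.09, 5.1, 5.68 and 5.37 without HGF and 6.04, 5.94, 6.43 and 6.24 with it, with no overlap. TGFB2, counted here only because it was on the fixed list, fell by 1.68 ± 0.28 (SE, adjusted p = 0.00455 by limma), from -1.46 ± 0.22 to -3.14 ± 0.58 (SD, n = 4). Whether any of the integrins here binds TGFB2 was not tested. In 16HBE-WT none of the 18 was called, beside 0% of all probes, and TGFB2 had the largest change, -0.76 ± 0.28 (SE, adjusted p = 0.92 by limma). The median change of the ligands was -0.16 in 16HBE-ex14. Between the genotypes, FN1, COL4A1 and TNC were lower in 16HBE-ex14 without HGF, 3 of 18 beside the 9.4% of all probes. With HGF 7 of 18 were lower, among them TGFB2 again, beside 10.8% called over all probes in either direction. FN1, fibronectin itself, had the largest difference in each, -1.34 ± 0.2 (SE, adjusted p = 0.000293 by limma) without HGF and -1.77 ± 0.2 (2.57e-05) with it.

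Of 20 cytoplasmic partners, which link integrins to actin or switch them on, all were tested. FERMT1, the epithelial kindlin, rose with HGF in 16HBE-ex14 by 1.43 ± 0.19 (SE, adjusted p = 0.00156 by limma). Its level was 2.59, 2.56, 3.3 and 2.69 without and 4.21, 3.92, 4.61 and 4.13 with HGF. Of the tensins, which bind the tails of beta subunits, TNS4 rose by 1.21 ± 0.25 (SE, adjusted p = 0.0162) and TNS3 fell by 1.16 ± 0.22 (0.0119). In 16HBE-WT 0 of the 20 were called, beside 0% of all probes, the largest change being -0.61 ± 0.22 for TNS3 (SE, adjusted p = 0.92 by limma). The difference between the responses was 1.03 ± 0.27 for FERMT1 (SE), with an adjusted p of 0.547 by limma. Between the genotypes 2 partners were higher in 16HBE-ex14 without HGF (PARVA and BCAR1) and 5 with it (those and FERMT1, TNS4 and PXN), and none was lower. The 2 of 20 (10%) without HGF is near the 9.4% of all probes, and the 5 of 20 with HGF (25%) stands beside 10.8%. PARVA, a linker to actin, was 0.94 ± 0.09 higher without HGF (SE, adjusted p = 1e-05 by limma), and FERMT1 1.35 ± 0.19 higher with HGF (0.000161).

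All 7 hemidesmosome and tetraspanin partners were tested, and 0 were called with HGF in either genotype. Over all probes, 2% were called in 16HBE-ex14 and 0% in 16HBE-WT. Their largest HGF changes were -0.55 ± 0.19 for DST in 16HBE-ex14 (SE, adjusted p = 0.161 by limma) and -0.35 ± 0.11 for CD9 in 16HBE-WT (0.871). COL17A1, the hemidesmosome collagen that stands beside ITGA6 and ITGB4, was lower in 16HBE-ex14 by -1.83 ± 0.26 without HGF (SE, adjusted p = 0.000215 by limma) and by -1.8 ± 0.26 with it (0.000206). Its level was 1.19, 1.27, 1.75 and 1 in 16HBE-WT and -0.67, 0.02, -0.73 and -0.71 in 16HBE-ex14. CD82 was also lower without HGF, by -0.6 ± 0.15 (SE, adjusted p = 0.0111 by limma). Called between the genotypes were thus 2 of 7 without HGF, beside 9.4% of all probes, and 1 of 7 with it, beside 10.8%. The median change with HGF in 16HBE-ex14 was -0.06 over the cytoplasmic and -0.13 over the hemidesmosome and tetraspanin partners, and the median difference between the genotypes under HGF was -0.03 and -0.1, beside -0.4 for the ligands. Over all probes these medians were 0.05 and 0. The basal keratins named above moved in the same comparisons as COL17A1, and their part was not tested.

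For the members with the largest differences among the 4 group means, relative to the spread between arrays, the genes whose levels ran most alike over the 16 arrays were sought by the root-mean-square distance between levels centred on their own mean. For ITGA6, with an SD of 0.22 over the arrays, they were POLM (0.0767), FKBP1A (0.0892) and SNX30 (0.0896). For ITGB8 (SD 0.619) they were CTSH (0.256), LOC101928152 (0.267) and RNFT1 (0.269). For ITGB3 (SD 0.842) they were THBD (0.515), SPRY4 (0.527) and DUSP6 (0.539), where the level of ITGB3 itself was above background on only 4 of the 16 arrays. All points share the arrays and their scaling.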

How the data were processed

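Expression was measured on 16 arrays of 1 colour, 4 per group. The deposited intensity is the processed spot signal of Agilent Feature Extraction 10.7.3.1, linear, background-subtracted and detrended within the array, with no scaling between arrays, and positions on hg19. The deposited table of all samples held identical values. Each array had 62976 spots, of which 60901 were no controls, and 0 were saturated. Groups came from the labels. The authors state limma for their comparisons. Their normalization between arrays is not given in the sources used here.

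In R 4.3.3 with limma 3.58.1, spots marked as outliers were left out, log2 was taken, the 75th percentile of each array subtracted and spots of a probe averaged. Tested were probes detected well above background on 4 or more arrays (34600 of 58201), with 1 mean per group over all 16 arrays, and called at an adjusted p under 0.05 and over 1.5-fold. The fit was tested on simulated data. Slides and rows held every group equally. Replicate numbers follow slide and row and were not taken to pair arrays. The number of arrays limits the precision.

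The members and lists were chosen with earlier results of these data known. By a rule set with them, the text names every member, each listed gene called with HGF in 16HBE-ex14, the largest change of a list in the other comparisons, and the 3 most alike genes of 3 members. KRT5, CD82, LUM, CD3E and the called genes of lists with at most 5 calls between the genotypes were named after their values were seen. CYR61 and CTGF of the ligand list stand as CCN1 and CCN2 on the array, and of the leukocyte list CD68 and LYZ were not analysed here. The result of 1 further listed gene is not reported here. Alternatives were normexp with an offset of 50, quantile, median and spike-in scaling, slide or replicate as a block, other filters on dim probes, no removal of outlier spots, other arrays in the fit, another prior, no fold limit, all probes of a gene, and leaving out each array. Promoter windows were searched in Python 3.11.15, and figures drawn with matplotlib 3.10.9.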

Additional observations from a re-analysis of the deposited data

Results flagged for a closer look

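In 4 of 40 groups of 4 arrays (10 members in 4 groups), the gap from 1 array to its nearest neighbour was, as a share of the group's whole range, above Dixon's 95% critical value, where chance alone gives about 1 group in 20. ITGA5 was at 1.64 on replicate 3 of 16HBE-WT, above the other arrays of that group at 1.29 to 1.33. ITGA6 was at 4.05 on replicate 3 of 16HBE-ex14, above 3.73 to 3.79, and its difference between the genotypes without HGF ranged from -0.47 to -0.36 over the fits that left out 1 array. ITGB1 was at 2.41 on replicate 2 of 16HBE-ex14+HGF, below 2.64 to 2.68. ITGB3 was at -6.03 on replicate 3 of 16HBE-ex14, below -4.78 to -4.64, all of them not well above background.

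The second ITGB1 probe, at chr10:33247733-33247792 (hg19) and position 201 of its transcript, was outside the comparisons. It was well above background on 1 array, replicate 1 of 16HBE-ex14+HGF, at a level of -4.37 (linear signal 12.68), and on none of the 4 arrays of 16HBE-WT, which lay between -6.51 and -5.33.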

How the results depend on the processing

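ITGB8 under HGF kept its call between the genotypes in all alternatives, with differences from -1.4 to -0.86, and ITGA2 there lost it only with normexp (0.55, under the fold limit). With the replicate block, 2 members were called with HGF in 16HBE-ex14 and 3 between the genotypes under HGF, as without it, and no member's call changed, while 734 of all probes were called with HGF in 16HBE-ex14 in place of 693. Deviations of same-numbered arrays from their group means correlated by 0.03 to 0.32, over 0.1 in 19 of 24 pairs, and 4 of the 16 arrays correlated best with their own number. Called with HGF in 16HBE-ex14 were 1 of 10 with normexp, 1 with E1A spike-in scaling, 1 with no filter on dim probes, 1 with only probes above background on all 16 arrays (which leaves out ITGB3), 0 with only the 8 arrays compared, 4 with no fold limit, and 0 to 3 with 1 array left out. The lowest count came without replicate 3 of 16HBE-ex14+HGF, and the highest without replicate 3 of 16HBE-ex14. ITGA2 had an adjusted p of 0.0622 with spike-in scaling, 0.0705 with median scaling, 0.0632 with no filter and 0.0837 in the 8 arrays. Under HGF the genotypes differed in 1 member with normexp and 5 with no fold limit, and without HGF in 1 with no fold limit. The other counts with 1 array left out were 0 to 0, and 3 to 3 between the genotypes under HGF. The causes of these changes in the counts were not tested.

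Over all probes, normexp called 411, 1489 and 1814 in place of 693 (HGF in 16HBE-ex14), 3252 and 3749 (genotypes without and with HGF), the 8 arrays 246 in place of 693, and no fold limit 6348 and 7125. Higher were 52.2%, 48% and 49.1% of those calls, with median scaling 24.1%, 71.8% and 66%, with spike-ins 41.2%, 67.9% and 60.6%, with normexp 60% and 58.8% between the genotypes, and with no filter 35.4% between them under HGF. Median scaling put the median change of all probes at -0.11, 0.12 and 0.09 and normexp at -0.13 and -0.14 between the genotypes.

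Signs turned in values near 0 that were not called, and in ITGB3. With normexp these were ITGA6 (0.08), ITGB1 (0.02) and ITGB3 (-0.01) between the genotypes under HGF, and ITGB3 (0.05) and ITGB4 (-0.02) with HGF in 16HBE-WT. With quantile normalization they were ITGAV without HGF (-0.04) and ITGB4 with HGF in 16HBE-WT (-0.05). With median scaling they were ITGA6 (0.08) and ITGB1 (0.04) between the genotypes under HGF, ITGA6 (-0.01), ITGB4 (-0.11) and ITGB6 (-0.11) with HGF in 16HBE-WT, and ITGB6 with HGF in 16HBE-ex14 (-0.13) and in the difference of responses (-0.03). With spike-in scaling they were ITGA6 (0.04) and ITGB1 (0) between the genotypes under HGF, ITGB4 (-0.02) and ITGB6 (-0.02) in 16HBE-WT, and ITGB6 in 16HBE-ex14 (-0.05) and in the difference (-0.03). With the mean of its probes ITGA6 differed by 0.03 under HGF. With 1 array left out, the ranges that crossed 0 were, between the genotypes under HGF, -0.18 to 0.04 for ITGA5, -0.05 to 0.01 for ITGA6 and -0.09 to 0 for ITGB1, and without HGF -0.01 to 0.08 for ITGAV and -0.34 to 0.13 for ITGB3. For HGF in 16HBE-WT they were -0.09 to 0.1 for ITGB4, -0.07 to 0.08 for ITGB6 and -0.16 to 0.03 for ITGB8, in 16HBE-ex14 -0.08 to 0.01 for ITGB1 and -0.05 to 0.09 for ITGB6, and in the difference -0.06 to 0.09 for ITGB6.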

Other observations

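Of the 16 other integrin subunits on the array, 14 were tested. ITGA10, an alpha subunit of collagen receptors best known from cartilage, rose with HGF in 16HBE-ex14 by 1.08 ± 0.26 (SE, adjusted p = 0.0361 by limma). It was the only call of the 14 in that comparison, where 2% of all probes were called. Its level was -3.24, -3.05, -2.57 and -3.27 in 16HBE-WT, -3.15, -2.92, -2.44 and -2.76 with HGF, -1.8, -2.21, -1.28 and -2.68 in 16HBE-ex14 and -0.58, -0.95, -1.09 and -1.03 with HGF. It was higher in 16HBE-ex14 by 1.04 ± 0.26 without HGF (SE, adjusted p = 0.0114 by limma) and by 1.9 ± 0.26 with it (0.000135). The difference of its responses was 0.86 ± 0.37 (SE), with an adjusted p of 1 by limma.

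ITGA1, another collagen-binding alpha subunit, was called higher in 16HBE-ex14 without HGF (adjusted p = 0.0122 by limma) and with it (0.00669). But it was well above background on 0 arrays of either wild-type group, on 1 of 4 in 16HBE-ex14 and on 3 of 4 in 16HBE-ex14+HGF. ITGA1 was thus tested only through the genotype where it was high, so these calls give no support for a difference. No fold is given. The list had no called gene with HGF in 16HBE-WT, beside 0% of all probes. ITGAL, which had the largest fitted change there (adjusted p = 1 by limma), was well above background on only 8 of the 16 arrays, so no size is given. ITGA8 and ITGAD were not tested.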
